A study of Bos taurus with 20 samples.

Results

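The HOX genes of clonal bovine mesenchymal stem cell (MSC) populations were examined across all 20 sequenced clones. Members were the rows of the count table whose symbol is HOX followed by a cluster letter and a paralogue number, and 39 of the 33063 named genes met this rule. The HOXA cluster gave 11 members, HOXB 10, HOXC 9 and HOXD 9. At least 1 count was found in some clone for 38 of them, and 30 passed the filter on low counts and could be tested.

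HOX genes encode homeodomain transcription factors that lie in 4 clusters and give cells their position along the body axes. Genes at one end of each cluster are used in anterior regions and those at the other end (the posterior genes, with high paralogue numbers) in caudal and distal regions. Mesenchymal cells keep much of this pattern in culture, so that HOX profiles are known to differ between fat depots and between fibroblasts of different body sites. HOX proteins bind DNA together with cofactors of the TALE class (PBX, MEIS and PKNOX proteins), and Polycomb and trithorax complexes hold their clusters off or on.

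The clones were grown from single sorted MSCs of visceral fat, taken from the inguinal or perirenal region of Holstein Friesian x Aberdeen Angus calves a few months old, and RNA was taken from undifferentiated cells. Adipogenic (A) clones were those with the highest capacity to form adipocytes, and non-adipogenic (N) clones were those that had formed none. There were 10 A and 10 N clones from 4 animals, 1 clone per condition from each of animals 17 and 20 and 4 per condition from each of animals 22 and 23. The growth medium held serum and basic fibroblast growth factor, and after sorting it was mixed with medium conditioned by MSCs of the same animal. Each library was 1 clone, so that a clone is named here by condition, animal and clone number (N 22-5 is N clone 5 of animal 22). Which region each animal's fat came from is not given in the sources used here. Clones of 1 animal share their source, and p-values measure the spread between clones. Total counts on named genes were between 14908802 and 43111345 in N clones and between 14615493 and 29185355 in A clones, so that 3 counts, the limit that a count of 0 allows, corresponded to between 0.0763 and 0.216 CPM (counts scaled to library size). Levels are CPM scaled by TMM factors. No transcript lengths were used, so levels are compared between clones for 1 gene and not between genes. In populations of this kind, fewer cells with a transcript and less transcript per cell cannot be told apart.

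Of 8 MSC markers, none was called between A and N clones, and their sum of 9022 to 24203 CPM was mostly COL1A1 (6248 to 19787 CPM). In N 22-5 the surface markers THY1, NT5E and ENG, which define MSCs, were at 0.393, 0.506 and 19 CPM. The other 19 clones had at least 12.2, 32.0 and 164 CPM, so that this library went against its label in these genes. It was also lowest in PDGFRB (59.3 against at least 118 CPM), COL1A1 and, narrowly, ITGB1 (1576 against at least 1655 CPM). Its CD44 (952 CPM) and PDGFRA (167 CPM) lay within the range of the other 19 clones. Leukocyte markers summed to at most 11.4 CPM (CD68 was called higher in A clones), and endothelial markers to at most 41.1 CPM. Smooth muscle and pericyte markers summed to 128 to 6125 CPM in N clones (median 1691) and to 915 to 8359 CPM in A clones (median 3484). Of these MYH11 (log2 fold change 3.04, SE 1.05) and CSPG4 (1.76, SE 0.450) were called higher in A clones, and their part in the results below was not tested. A pair of N clones stood apart in the summed level of the 9 mesothelial markers found in the table. Their sum was 10124 CPM in N 22-5 and 7032 CPM in N 22-9, against 8.11 to 1178 CPM in the other 18 clones, and KRT8, a keratin of epithelial and mesothelial cells, was at 4755 and 2715 CPM in this pair. UPK3B, also on the list, did not set the pair apart. It was at 6.85 CPM in N 22-5 and 11.7 in N 22-9, against 16.5 in A 22-11 and 14.9 in N 23-10. CALB2, another marker of mesothelium, was at 0 in both and at no more than 0.0628 CPM in any clone. MSLN, a mesothelial surface protein, was called lower in A clones (−1.97, SE 0.645). Results that rest on these clones are given below with and without them.

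The members fell into 3 sets by how widely they were detected. HOXB13 had no count in any clone. HOXD1, HOXD12 and HOXB1 had at most 0.131 CPM in any clone. HOXC12 reached 0.706 CPM in N 17-23, and HOXD10, HOXD11, HOXD13 and HOXC11 reached between 1.28 and 2.06 CPM in their highest clone without passing the filter. The members that were not tested were thus mainly the posterior HOXC and HOXD genes. A count was found in all 20 clones for 10 of 11 HOXA genes, 8 of 10 HOXB genes, 6 of 9 HOXC genes and 4 of 9 HOXD genes.

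Whether adipogenic capacity went with a different HOX profile was asked by comparing A with N clones within animals. HOXD4 and HOXB7, transcription factor genes of the anterior and central parts of their clusters, were lower in A clones, and no HOX gene was called higher. The HOXD4 level fell by 1.03 on the log2 scale (SE 0.249) and that of HOXB7 fell by 0.60 (SE 0.149). These were 2 of 30 members tested (6.67%), and 1 of the 2 passed the 2-fold threshold. Among all 12900 genes tested, 20.6% were called (10.3% lower and 10.3% higher in A clones) and 5.76% passed both thresholds, so that the share of HOX genes called was below that of all genes. An unadjusted p under 0.05 was found for 7 of the 30. The median log2 fold change was 0.02 over the HOX genes and −0.01 over all genes, and the median size of the change, regardless of sign, was 0.32 and 0.25.

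In N clones the HOXD4 level had a lowest value of 6.82, a median of 12.7 and a highest value of 18.7 CPM. In A clones the corresponding values were 2.89, 5.49 and 10.9 CPM. The groups overlapped, but 7 A clones were lower than the lowest N clone and 7 N clones were higher than the highest A clone. Means and SDs over 10 clones were 12.9 ± 3.83 CPM (N) and 6.34 ± 2.92 CPM (A), and the adjusted p was 0.00986 (edgeR quasi-likelihood test, Benjamini-Hochberg over all genes). Within animals, A clones differed from N clones in mean log2 CPM by −1.22 (animal 17), −2.63 (animal 20), −0.60 (animal 22) and −1.15 (animal 23). HOXD4 was therefore lower in A clones of all 4 animals, with its smallest difference in animal 22.

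HOXB7 had a median of 8.66 CPM and a range of 5.42 to 13.2 CPM in N clones. Its median in A clones was 6.02 CPM, within a range of 3.8 to 7.98 CPM. All N clones except N 22-18 (5.42 CPM) and N 17-23 (7.66 CPM) lay above every A clone. N 22-5, at 7.978 CPM, was nearly level with the highest A clone, A 23-14, at 7.976 CPM. Means and SDs over 10 clones were 9.20 ± 2.27 and 5.98 ± 1.38 CPM (edgeR adjusted p = 0.011), and the difference had the same direction in all 4 animals, between −0.35 and −0.85. Neither call was lost when any 1 of the 20 clones was left out. Without animal 23, however, neither HOXD4 (edgeR adjusted p = 0.145) nor HOXB7 (edgeR adjusted p = 0.236) was called, in a fit that called 32 of 13071 genes in all.

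**Figure D1:**
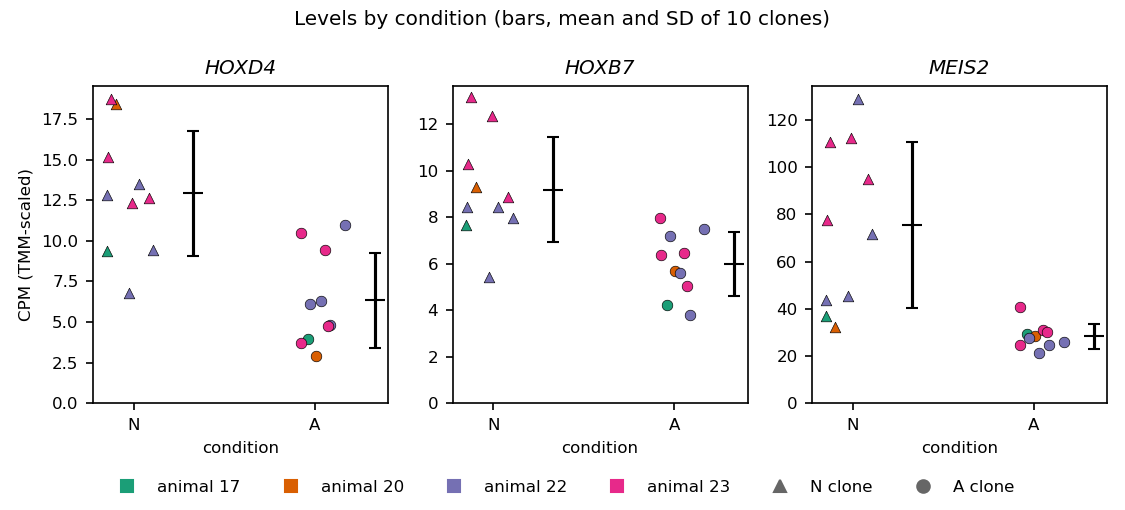
Levels of HOXD4, HOXB7 and the cofactor gene MEIS2 in each clone (vertical axis, CPM scaled by TMM factors) by condition (horizontal axis), coloured by animal, with bars for the mean and SD of 10 clones. For HOXD4, 7 A clones lie below all N clones, for HOXB7 3 and for MEIS2 9.

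The next HOX genes by p did not pass the threshold. HOXC13, a posterior gene known for its part in hair and nail, had a log2 fold change of 1.52 (SE 0.585, edgeR adjusted p = 0.0728), with a median of 0.757 CPM in N and 1.92 CPM in A clones. It was not confined to A clones, since N 17-23 had 5.60 CPM while N 22-5 had no count. HOXC5 had a log2 fold change of 0.56 (SE 0.240, edgeR adjusted p = 0.101) and HOXA2, the most anterior HOX gene of the hindbrain and branchial arches, one of −0.93 (SE 0.419, edgeR adjusted p = 0.122).

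The 4 HOXD genes tested had log2 fold changes below 0 under each of 3 scalings (TMM, DESeq2 size factors and upper quartile), but HOXD4 alone was called. HOXD9 had a value of −0.74 (SE 0.295, edgeR adjusted p = 0.0823), HOXD3 of −0.72 (SE 0.314, edgeR adjusted p = 0.107) and HOXD8 of −0.28 (SE 0.247). The direction was not shared by every animal. In mean log2 CPM, A clones were higher than N clones by 0.569 for HOXD9 in animal 20 and by 0.435 for HOXD8 in animal 22. HOXD3 was lower in A clones of all 4 animals, but by only −0.02 in animal 22. HOXD3 was called when animal 22 was left out (edgeR adjusted p = 0.0144), in limma-voom (adjusted p = 0.0318) and in DESeq2 with no animal block (adjusted p = 0.0336). HOXD3 and HOXD4 overlap in the RefSeq annotation of ARS-UCD2.0, and how reads on overlapping genes were counted is not stated, so their counts may not be separate measurements. HOXB7 and HOXD9 overlap no other member there. In the other clusters the signs were mixed, with 5 of 11 HOXA genes, 5 of 8 HOXB genes and 6 of 7 HOXC genes above 0.

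**Figure D2:**
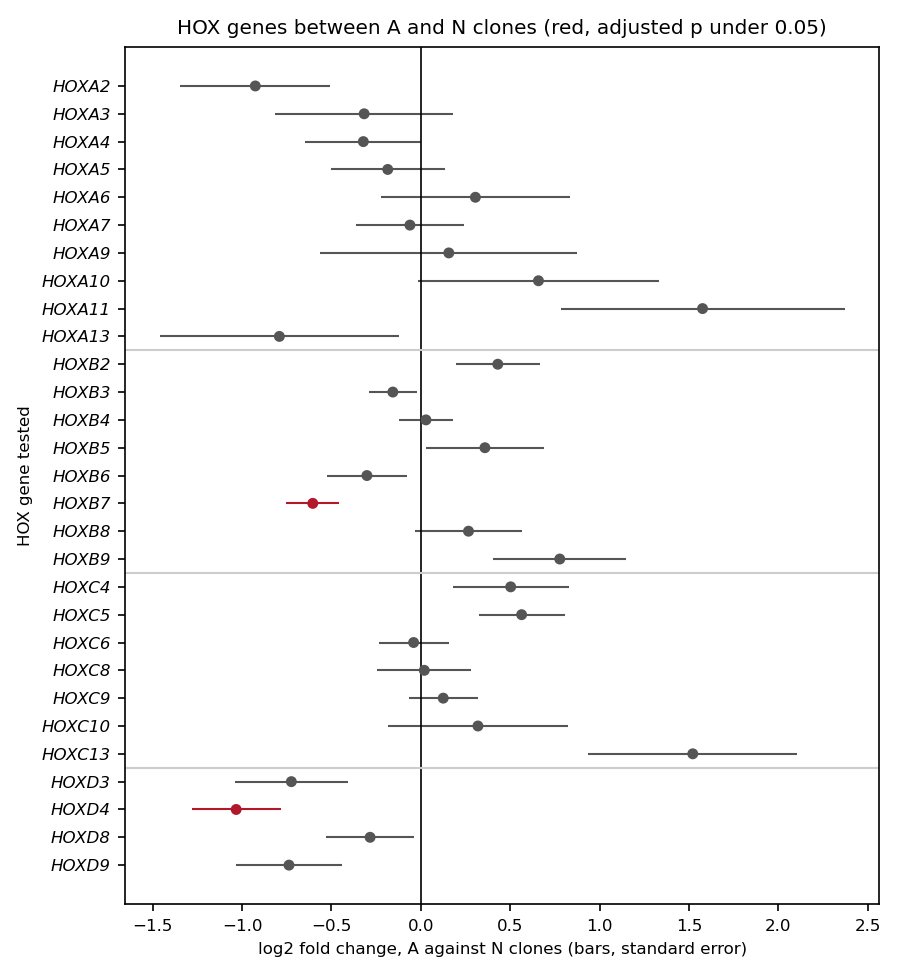
Log2 fold change of A against N clones (horizontal axis) for 29 of the 30 HOX genes tested (vertical axis, in cluster order), with bars for the standard error. HOXD4 and HOXB7, in red, had an adjusted p under 0.05 and lie below 0, and the widest bars belong to the posterior HOXA genes.

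HOX genes varied more among clones than most genes did. After condition and animal were taken into account, the residual SD of log2 CPM had a median of 0.716 over the HOX genes and 0.338 over all genes tested, and 28 of 30 HOX genes lay above the latter value. The biological coefficient of variation, edgeR's estimate of the spread beyond counting noise, had medians of 0.478 and 0.256. The HOX genes were also lower in level, with a median of the mean log2 CPM of 2.90 against 4.46, and the part of level in this difference was not tested. Of the variation of log2 CPM, condition took a median share of 5.33% for HOX genes and 11.3% for all genes. Animal took 30.3% and 18.8%, and the remainder took 59.2% and 62.4%. This remainder, like the residual SD, holds the spread of clones within animal and condition and any difference of the condition effect between animals. The clusters were unlike each other. HOXA genes had the largest residual SD, with a median of 1.0 on the log2 scale, and HOXB genes the largest share on animals, with a median of 44.8%.

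**Figure D3:**
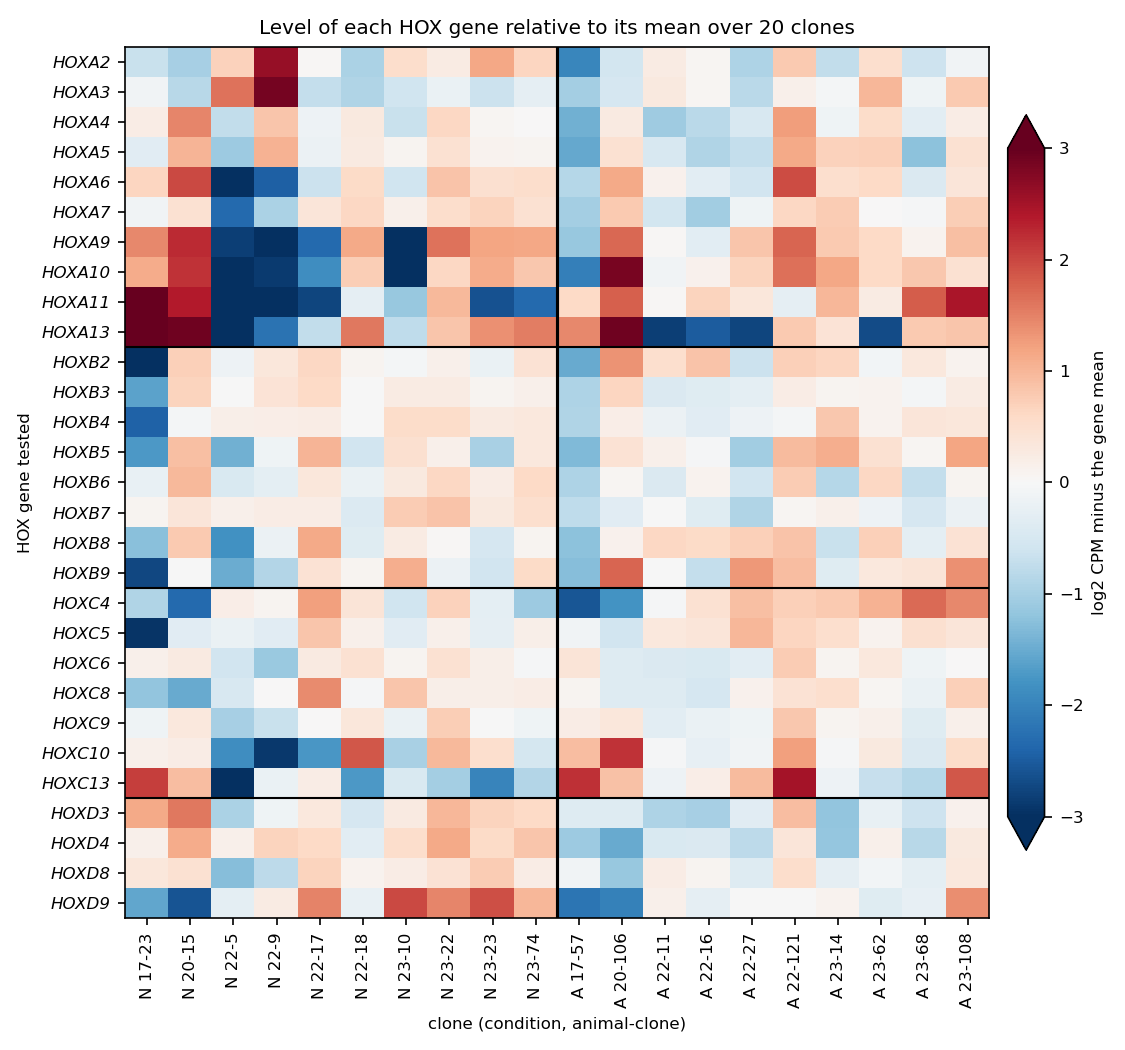
Level of 29 of the 30 HOX genes tested (rows, by cluster) in each clone (columns, N clones left and A clones right of the black line, ordered by animal), as log2 CPM minus the mean of the gene over 20 clones, with the colour scale ending at 3 in each direction. HOXA9, HOXA10 and HOXA13 have low values in N 22-5, N 22-9, N 22-17 and N 23-10, and HOXB2, HOXB3 and HOXB4 in N 17-23.

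The largest spread belonged to HOXA9, with a residual SD of 2.04 on the log2 scale, followed by HOXA10 (1.73), HOXA13 (1.62) and HOXA11 (1.52). HOXA9 and HOXA10 mark trunk and proximal limb, and HOXA11 and HOXA13 successively more distal limb and the urogenital tract. HOXA11 and HOXC13 were the members tested that had both a clone under 0.1 CPM and a clone over 5 CPM. HOXA11 was at 0 in N 22-5 and N 22-9 and at 12.7 CPM in N 17-23, with a median of 0.225 CPM in N clones. In A clones it had a count in every library, from 0.730 through a median of 1.47 to 5.38 CPM. HOXA11 was below every A clone in 6 N clones, and its log2 fold change of 1.58 (SE 0.794) was not past the threshold (edgeR adjusted p = 0.161).

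The N clones fell into 2 sets for HOXA9, HOXA10 and HOXA13, a pattern chosen after the values were seen and given as a description. HOXA9 was at 2.19 CPM in N 22-5, 1.49 in N 22-9, 3.13 in N 22-17 and 0.236 in N 23-10. In the other 6 N clones it lay between 35.9 and 76.7 CPM. The gap between the sets was 11.5-fold, and A clones, at 7.27 to 54.1 CPM, had HOXA9 levels between those of the 4 low clones and the highest N clones. The same 4 clones were the 4 lowest N clones for HOXA6, HOXA10, HOXA13 and HOXC10 as well, which makes 4 of the 29 other members tested. The posterior gene HOXA11 did not follow this split, with N 23-10 at 0.353 CPM, above N 23-23 (0.0599) and N 23-74 (0.0971).

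For HOXA10 these 4 clones had between 0.112 and 0.940 CPM and the other 6 N clones between 5.80 and 17.0 CPM. For HOXA13 the ranges were 0.112 to 2.15 and 6.68 to 33.9 CPM, and for HOXA6 0.562 to 6.60 and 14.0 to 39.4 CPM. The HOXC10 gap was narrow, with 2.39 to 9.25 CPM against 12.8 to 67 CPM. Low values were not limited to N clones. A 17-57 had the lowest HOXA9 (7.27 CPM) and HOXA10 (0.816 CPM) of the A clones, while 4 A clones (A 22-11, A 22-16, A 22-27 and A 23-62) had HOXA13 under 0.6 CPM with HOXA9 at 13.0 CPM or more.

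The low clones differed from each other at the other end of the cluster. HOXA3, an anterior gene of neck and pharyngeal arches, was at 19.2 CPM in N 22-5 and 45.4 CPM in N 22-9, and at most 12.4 CPM in the other 18 clones. HOXA2 was also highest in N 22-9, at 5.68 CPM, with at most 1.98 CPM in every other clone. N 22-17 and N 23-10 had no such rise, with HOXA3 at 3.67 and 4.01 CPM, within the range of the other N clones. HOXC8 was instead high there, at 110 and 72.8 CPM, the highest 2 values of the 20 clones. HOXD9 was at 16.1 and 22.7 CPM in N 22-17 and N 23-10. Such HOXD9 levels were not particular to them, with 22.1 CPM in N 23-23, 15.8 in N 23-22 and 15.2 in A 23-108. The pair with high HOXA3 is the pair with high mesothelial markers named above. N 23-10 had the next highest mesothelial sum of the N clones, at 611 CPM, with WT1 at 148 CPM but KRT8 at 2.83 CPM. A 22-11 and A 22-16 had higher sums than N 23-10, at 1178 and 1030 CPM, with KRT8 at 584 and 445 CPM. Their HOXA9 levels were 16.4 and 13.0 CPM, and their HOXA3 levels 7.57 and 6.40 CPM. In N 22-17 the sum was 50.5 CPM, with WT1 at 43.0 CPM and KRT8 at 0, within the range of N clones with high HOXA9. The part of mesothelial markers in the pattern was not tested.

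Long non-coding RNAs of the HOXA cluster, which the rule did not use, were read in the same clones. LOC104972110, which lies between HOXA13 and HOXA11 in ARS-UCD2.0, had no count in N 22-5, N 22-9 and N 23-10 and 0.0448 CPM in N 22-17. In the other 16 clones it lay between 0.544 and 3.43 CPM, so that its 4 lowest clones were the 4 low in HOXA9. LOC100848443, which lies beside HOXA2, was highest in N 22-9 (7.77 CPM), of the pair with high HOXA3. N 22-5, at 4.33 CPM, was nearly level with N 23-22 (4.23 CPM), where HOXA3 was at 5.30 CPM. LOC112446396, which overlaps HOXA5, HOXA6 and HOXA7, did not follow the HOXA9 split, with 0.471 CPM in N 23-10 and 0.120 in N 23-23. LOC112446395 was near the floor, at no more than 0.326 CPM in any clone. Of 8 long non-coding RNAs of the 4 clusters found in the table, 5 were tested and 0 were called between A and N clones (0 at an unadjusted p under 0.05).

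**Figure D4:**
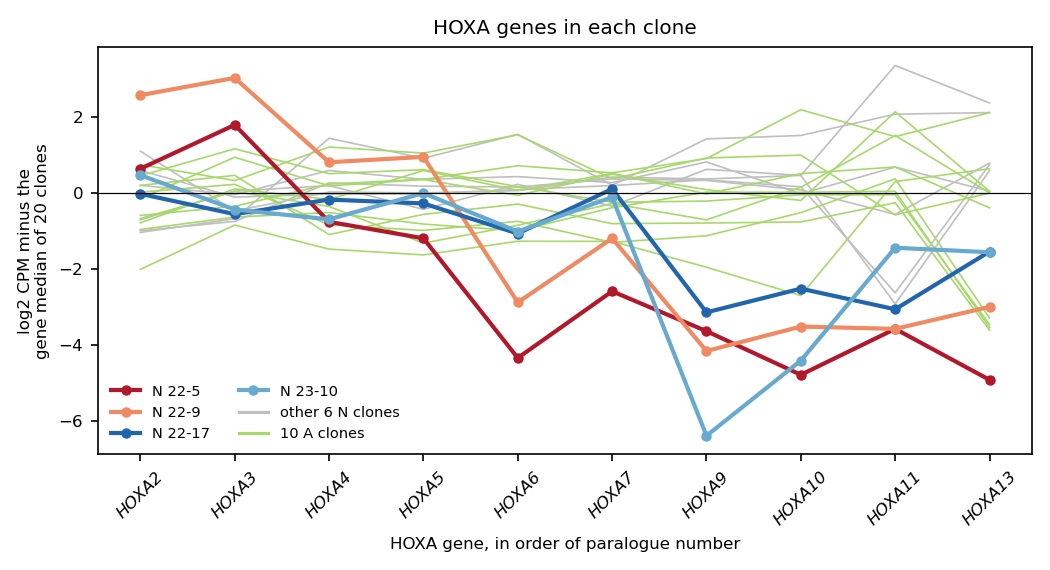
HOXA genes from HOXA2 on, in order of paralogue number (horizontal axis) against log2 CPM minus the gene's median over 20 clones (vertical axis), 1 line per clone. N 22-5, N 22-9, N 22-17 and N 23-10 fall below the other clones at HOXA9, where they have at most 3.13 CPM, and N 22-5 and N 22-9 rise above them at HOXA3.

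The difference between A and N clones changed sign for 3 genes of this pattern when the pair with high mesothelial markers was left out. HOXA9 had a log2 fold change of 0.16 (SE 0.718) over all clones and −0.32 without N 22-5 and N 22-9, HOXA6 of 0.30 (SE 0.527) and −0.14, and HOXA3 of −0.32 (SE 0.496) and 0.63. None was past the threshold in either fit. HOXD4 and HOXB7 were both called without this pair.

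Animals were compared because position is what HOX genes are known for. HOXD9, HOXB4, HOXB3, HOXB2 and HOXC4 differed between the 4 animals, which made 5 of 30 members (16.7%), against 4.6% of all genes tested (edgeR quasi-likelihood test with 3 degrees of freedom, adjusted p under 0.05). An unadjusted p under 0.05 was found for 11 of the 30. Animals 17 and 20 gave a pair of clones each, so their levels rest on few libraries.

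HOXD9, a gene of the lumbar region and proximal limb, was at 1.85 CPM in N 17-23, 1.16 in A 17-57, 0.857 in N 20-15 and 1.32 in A 20-106. In animal 22 it ranged from 4.61 to 16.1 CPM with a median of 5.65, and in animal 23 from 4.40 to 22.7 CPM with a median of 13.3. The 4 clones of animals 17 and 20 lay below all 16 clones of animals 22 and 23 (edgeR adjusted p for animals = 0.00534). HOXC4, an anterior gene of the neck region, showed nearly the same order. It was at 10.9 and 3.4 CPM in the N and A clone of animal 17 and at 3.98 and 5.87 CPM in those of animal 20, against 20.2 to 48.2 CPM in animal 22 and 9.56 to 66.5 CPM in animal 23 (edgeR adjusted p = 0.0335). In HOXC4 N 23-74, at 9.56 CPM, overlapped the clones of animal 17.

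The 3 HOXB genes differed through animal 17. HOXB2, an anterior gene of hindbrain and branchial arches, was at 1.14 CPM in N 17-23 and 7.48 CPM in A 17-57, and at 13.8 to 54.9 CPM in the other 18 clones (edgeR adjusted p for animals = 0.0103). HOXB3 was at 2.44 and 3.94 CPM in the clones of animal 17 and at 5.62 to 12.2 CPM elsewhere (edgeR adjusted p = 0.00999). HOXB4 was at 2.5 and 7.34 CPM in animal 17 and at 10.9 to 24.2 CPM elsewhere (edgeR adjusted p = 0.00786). Both clones of animal 17 were thus below all other clones for the 3 genes, with N 17-23 the lower. HOXB3 and HOXB4 overlap in ARS-UCD2.0 and may share reads, and so does the long non-coding RNA LOC100848766 with HOXB3 (1.2 CPM in N 17-23, 2.79 in A 17-57 and 3.93 to 19.8 CPM elsewhere). Without animal 17, HOXD9 and HOXC4 were called and the HOXB genes were not, and without animal 23 HOXC4 alone was. HOXC4 was not called without animal 20, without animal 22 or without N 22-5 and N 22-9. Leaving out N 17-23 removed the call for HOXB3.

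The posterior genes HOXA13 and HOXA11 had higher values in animals 17 and 20 but were not called. HOXA13 was at 33.9 and 10.1 CPM in animal 17 and 28.4 and 28.4 CPM in animal 20, and at most 11.2 CPM in animals 22 and 23 (edgeR adjusted p for animals = 0.113). HOXA11 was at 12.7 and 1.43 CPM in animal 17 and at 5.14 and 3.38 CPM in animal 20, within reach of the 5.38 CPM of A 23-108 (edgeR adjusted p = 0.0984).

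Between animals 22 and 23, with 8 clones each, 0 of 30 HOX genes were called, against 0.14% of all genes. HOXB4 and HOXD9 had an unadjusted p under 0.05, with log2 fold changes of 0.43 (SE 0.168) and 0.82 (SE 0.323) of animal 23 against 22. No HOX gene was called for a difference between these animals in the effect of condition (edgeR interaction term, 0 of 30, against 0.031% of all genes). With so few calls over all genes, the test cannot show that the effect was equal. For 3 HOX genes, HOXC4 and HOXA3 among them, the unadjusted p was under 0.05. The log2 interaction was 1.45 for HOXC4 (SE 0.517, edgeR adjusted p = 0.446) and 2.47 for HOXA3 (SE 0.927, edgeR adjusted p = 0.468). In HOXA3 the difference of A from N clones was −0.78 in animal 22 and 0.83 in animal 23. DESeq2 and limma-voom also called 0 HOX genes in both comparisons.

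**Figure D5:**
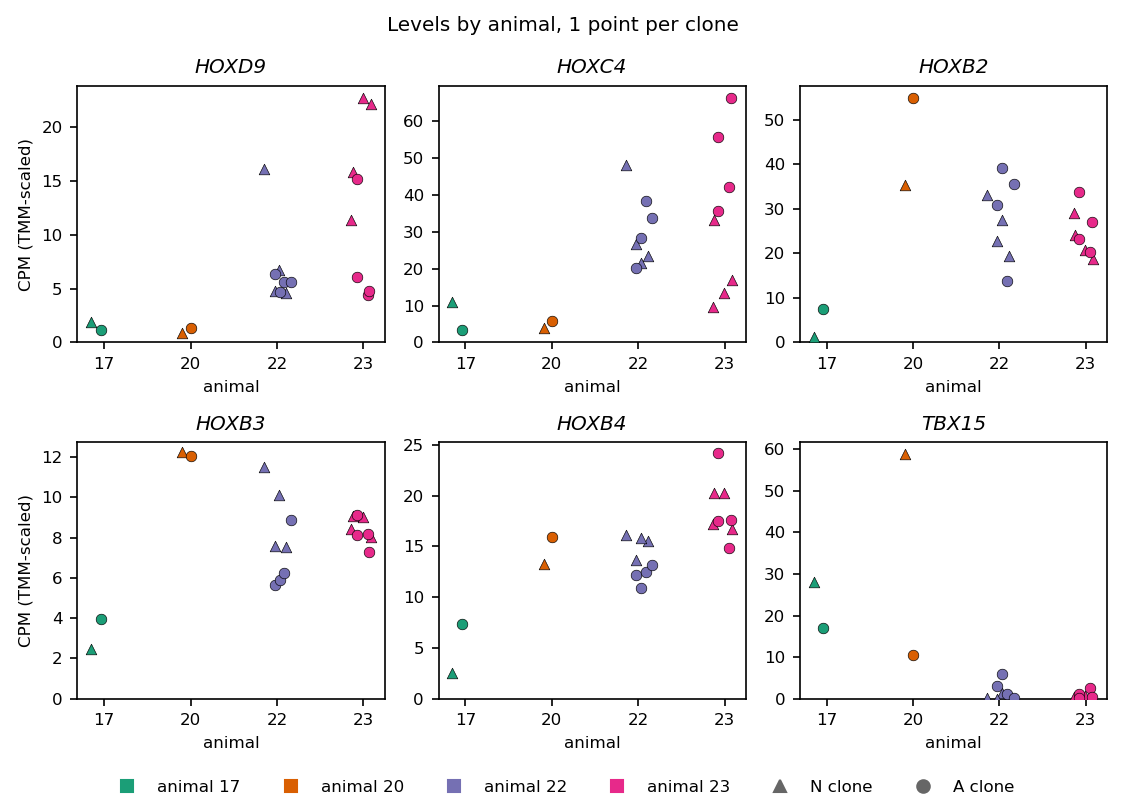
Levels of the 5 HOX genes that differed between animals, and of TBX15, in each clone (vertical axes, CPM scaled by TMM factors) by animal (horizontal axes), with triangles for N and circles for A clones. HOXD9 is lowest in animals 17 and 20, HOXB2, HOXB3 and HOXB4 in animal 17, and TBX15 is at 10.5 CPM or more in animals 17 and 20 alone.

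Other transcription factors of limb, trunk and fat depots were read from a list of 50, of which 26 passed the filter. TBX15, TCF21 and WT1 differed between animals (3 of 26, 11.5%, against 4.6% of all genes). TBX15, a T-box gene known to differ between fat depots, was at 28.0 and 17.0 CPM in the N and A clone of animal 17 and at 58.8 and 10.5 CPM in those of animal 20, and at 0 to 6.03 CPM in animals 22 and 23 (edgeR adjusted p = 0.0092). WT1, a factor of mesothelium and visceral fat progenitors that is also on the mesothelial list, was at 0 in the 4 clones of animals 17 and 20 and in N 22-18. In the other 15 clones it lay between 2.16 and 257 CPM (edgeR adjusted p = 0.0398). TBX5, a forelimb and heart gene, did not pass the filter, but it was at 4.78 CPM in N 17-23, 6.49 in N 20-15 and 2.99 in A 20-106, and at no more than 0.0654 CPM in the other 17 clones. The 4 clones of animals 17 and 20 thus stood apart from the other 16 in HOXD9, TBX15 and, except for N 22-18, WT1. Differences between animals and between the fat regions sampled cannot be told apart here, nor can those in the conditioned medium.

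Between A and N clones, 4 of the 26 genes were called (15.4%, against 20.6% of all genes), so that the list as a whole was not called more often than all genes. TCF21, a factor of visceral mesenchyme and fat progenitors, rose by a log2 fold change of 2.43 (SE 0.519, edgeR adjusted p = 0.00563), with medians of 1.28 CPM in N and 7.32 CPM in A clones. For TCF21, 7 A clones were higher than the highest N clone. TCF21 was at 0 in N 17-23, N 20-15 and A 20-106 and at 0.612 CPM in A 17-57, so that its rise rested on animals 22 and 23. Without animal 23 it was not called (1.73, edgeR adjusted p = 0.200). TBX18, a factor of mesenchymal and mural cells, rose (1.04, SE 0.359), in the direction of the smooth muscle and pericyte genes MYH11 and CSPG4 above. NR2F2, a nuclear receptor of mesenchyme known to restrain adipogenesis, fell by 1.22 (SE 0.238), and IRX5 fell by 1.59 (SE 0.548). The calls of TBX18 (edgeR adjusted p = 0.0491) and IRX5 (edgeR adjusted p = 0.0487) were each lost in 15 of the 20 fits that left out 1 clone.

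Among the 11 TALE cofactors, all tested, MEIS2 and PBX3 were lower and PBX4 was higher in A clones (3 of 11, 27.3%, against 20.6% of all genes). MEIS2, which binds DNA with HOX and PBX proteins, had a lowest value of 32.3, a median of 74.5 and a highest value of 129 CPM in N clones, against 21.3, 28.1 and 40.8 CPM in A clones. It fell by 1.33 on the log2 scale (SE 0.216, edgeR adjusted p = 0.00124), and all A clones but A 23-108 were lower than the lowest N clone, which makes 9 of 10. The lowest N clones were those of animals 20 and 17, at 32.3 and 36.8 CPM. PBX4 was low, with medians of 0.340 and 1.05 CPM (log2 fold change 1.63, SE 0.448), and the call of PBX3 (−0.36, SE 0.116) was lost in 11 of 20 fits without 1 clone. MEIS1 was at −0.44 (SE 0.252, edgeR adjusted p = 0.216). None of the 11 cofactors was called between animals (2 at an unadjusted p under 0.05).

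Of 36 upstream regulators, 33 were tested and 11 were called (33.3%, against 20.6% of all genes), 10 of them lower in A clones, the direction in which 10.3% of all genes were called. CDX1, CDX2 and CDX4, the caudal factors that open posterior HOX genes in the embryo, had no count in any clone. The Polycomb genes EZH2 (the methyltransferase), SUZ12 (its core partner), PHF19, CBX2, CBX8 and PHC1 fell, as did MEN1 of the trithorax side. EZH2 fell by 0.95 (SE 0.231, edgeR adjusted p = 0.0103) and SUZ12 by 0.44 (SE 0.0834, edgeR adjusted p = 0.00277), with SUZ12 lower in 8 A clones than in any N clone. JARID2, an accessory Polycomb subunit, rose (0.96, SE 0.309). EED, the third core Polycomb subunit, was at 0.28 (SE 0.109) and the trithorax gene KMT2A at −0.35 (SE 0.130), neither past the threshold.

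Retinoic acid receptors, which carry the signal that turns on anterior HOX genes in the embryo, fell as well. RARG had medians of 41.1 CPM in N and 15.7 CPM in A clones and fell by 1.19 (SE 0.184, edgeR adjusted p = 0.000898). RARA fell by 0.60 (SE 0.122) and RARB by 0.86 (SE 0.295), although the call of RARB (edgeR adjusted p = 0.0483) was lost in 16 of 20 fits without 1 clone. The calls of JARID2 and PHC1 were lost in 9 and 7 of these fits. Several of the genes that fell are known to follow cell division, so 6 proliferation genes were read as well, chosen after the values were seen. All 6 had lower values in A clones and 3 were called, with falls of 1.77 for MKI67, 1.42 for TOP2A and 1.37 for CDK1. Their part in the regulator results was not tested. Cofactors, regulators and positional genes together had 18 calls, against 14 without N 22-5 and N 22-9 and 1 without animal 23. Of the 18, PBX3, JARID2, RARB, TBX18 and IRX5 were not called without N 22-5 and N 22-9. PBX4 (edgeR adjusted p = 0.0509) and CBX2 (edgeR adjusted p = 0.0586) were not called there either. The 14 thus include genes that were not called over all clones.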

How the data were processed

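RNA from 20 undifferentiated MSC clones was sequenced as paired reads of 150 bases. The authors trimmed reads (Trimmomatic 0.36), mapped them to the bovine genome (STAR 2.5.2b, ARS-UCD1.2 per the labels) and deposited raw counts of unique reads within exons (Subread 1.5.2). The treatment of overlapping genes and strand is not given in the sources used here. The 1 row without a name (0.113% to 0.333% of counts) was left out.

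Counts were tested with edgeR 4.0.16 in R 4.3.3 (TMM, default filter by condition, robust quasi-likelihood F test, animal as block, Benjamini-Hochberg over 12900 genes, adjusted p under 0.05). Log2 CPM used a prior count of 2. The script was tested on simulated data. The pairing comes from the animals, in which A and N deviations correlated at 0.253, 0.192, 0.241 and 0.440. Alternatives used DESeq2 1.42.0, limma 3.58.1, other scalings and filters, summed counts and left-out clones and animals. RefSeq names of ARS-UCD2.0 (39 of 39 members matched) gave neighbours and overlaps.

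Members and lists were chosen with earlier results of these data known. Described singly were HOX genes called between conditions, the next 5 by p, the 5 of smallest p between animals, those with clones both under 0.1 and over 5 CPM, and list genes called between conditions. HOXA6, HOXA9, HOXA10, HOXA13, HOXA3, HOXC10, the cluster RNAs and other genes were named with their values in view. Single values of some genes are not reported here.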

Additional observations from a re-analysis of the deposited data

Results flagged for a closer look

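Among 96 groups of 10 clones examined (each HOX gene tested and each list gene called, in A and in N clones), 8 had a clone whose distance to the nearest other clone was a large part of the whole range of log2 CPM, where chance would give about 1 in 20, or 4.8. Of the 8, 4 were HOX genes in clone N 17-23. Its distance to the nearest N clone was 0.811 of the range for HOXB2 (1.14 CPM, next 18.8), 0.793 for HOXB4 (2.5 CPM, next 13.2), 0.695 for HOXB3 (2.44 CPM, next 7.53) and 0.686 for HOXC5 (0.761 CPM, next 5.07). These values rested on 14 to 46 counts. The A clone of the same animal was the lowest A clone for HOXB2, HOXB3 and HOXB4 but not for HOXC5, where it had 5.98 CPM. N 17-23 was the only N clone of animal 17, and HOXB2, HOXB3 and HOXB4 were the HOXB genes called between animals. The figure of 4.8 takes clones of different animals as alike and genes as independent, so it is a loose guide here.

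The other 4 were regulators and a positional gene, each with 1 low clone. The share of the range was 0.472 for JARID2 in N 22-5, 0.503 for CBX2 in N 22-18, 0.485 for MEN1 in A 22-16 and 0.573 for IRX5 in A 22-121, which had no count.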

How the results depend on the processing

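The 2 HOX genes called between A and N clones were 4 with DESeq2 and the block (HOXC13 and HOXD9 added), 0 with counts summed per animal and condition, and 0 without animal 23, while leaving out 1 clone gave 2 to 3. With no animal block 2 were called, and the block changed no call of a HOX gene named in edgeR. The 5 HOX genes called between animals were 9 with DESeq2, 2 without animal 17, 1 without animal 23, and 4 to 7 without 1 clone. The 18 calls among cofactors, regulators and positional genes were 29 with DESeq2, 0 with summed counts, 1 without animal 23 and 13 to 26 without 1 clone, and 16 with no block. The counts of 0 between animals 23 and 22 and for the interaction stayed at 0 in 30 and 19 alternatives.

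Some log2 fold changes that were not called changed sign. With no block, HOXB4 was −0.0512 and HOXA9 −0.0683 in edgeR, and HOXB4 −0.0426, HOXA9 −0.0583 and HOXA3 0.18 in DESeq2. In limma-voom HOXB4 was −0.0556 and HOXA3 0.0941. With summed counts HOXB3 was 0.0407, HOXA6 −0.35, HOXA9 −0.59 and HOXA10 −0.0862. Without animal 22 HOXB3 was 0.0526, HOXA6 −0.45, HOXA9 −0.67, HOXA10 −0.0667 and HOXA3 0.54. HOXB4 was −0.12 without animal 17, HOXC4 −0.16 without animal 23, and without N 22-5 and N 22-9 (an alternative chosen after seeing the data) HOXA6 was −0.14, HOXA9 −0.32 and HOXA3 0.63. Without 1 clone, HOXB4 ranged from −0.12 to 0.0724, HOXA6 from −0.0882 to 0.50, HOXA9 from −0.0953 to 0.58 and HOXA3 from −0.45 to 0.13. Summing leaves 4 pairs and leaving out animal 23 leaves 12 clones. Other causes were not tested.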
